A study of Mus musculus with 6 samples.

Results

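The genes described here are 5 markers of the upper hair follicle and junctional zone, namely Krt79, Plet1, Lrig1, Lgr6 and Gata6, which were taken by symbol from the count table. All 5 have a row among its 22295 genes, and all 5 are among the 21681 genes that had any count and were tested. The libraries came from GFP-positive keratinocytes that were FACS-sorted from the epidermis of 3 K19 Itga3 KO mice (19(Cre-ERT); mTmG; Itga3 fl/fl) and 3 K19 Itga3 WT mice (19(Cre-ERT); mTmG). All mice were bred on FVB, were shaved and injected at 6 weeks of age with tamoxifen at 10 mg/ml over 4 days, received 30 μg of DMBA at 7 weeks and were then given repeated applications of 12.34 μg of TPA. The methods of the study describe another tamoxifen concentration with topical doses added. WT mice therefore carried the same Cre, reporter, tamoxifen and carcinogen as KO mice and differed by the floxed Itga3 alleles alone as far as the labels say. The K19 promoter drives the Cre in hair bulge (HB) cells, and GFP marks the recombined cells with all their progeny, so the sort selects by origin and not by position. Column names give the genotype and nothing that ties a column to a sample, so the letters a to c name the 3 libraries of each genotype as the columns follow each other.

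Above the bulge, the hair follicle continues into the isthmus, the junctional zone below the opening of the sebaceous gland, and the infundibulum that opens at the skin surface. Each of these compartments holds its own stem or progenitor cells, which under steady conditions maintain that part of the follicle, whereas bulge cells feed the growing lower follicle. Lrig1, a transmembrane inhibitor of ERBB receptors, marks junctional zone stem cells. Plet1, a glycoprotein of the cell surface recognised by the antibody MTS24, marks cells between bulge and sebaceous gland. Lgr6, a receptor for R-spondins, marks cells of the isthmus. Gata6 encodes a zinc finger transcription factor of the junctional zone and sebaceous duct. Krt79, a type II keratin, is made by the differentiating cells that line the infundibulum and the sebaceous duct. The comparison asks whether RNA of these compartments differed between KO and WT cells that began in the bulge. In a bulk sample, a change in the number of cells of a type and a change in RNA per cell cannot be told apart.

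The libraries held 20578309 to 23670507 counts on genes. Itga3 stood at 252 to 371 CPM (counts per 1000000 counts of the library, scaled by TMM factors) in WT and at 124 to 134 CPM in KO libraries, so each library matched its label. The 4 keratinocyte genes of the list (Krt5, Krt14, Trp63 and Itgb4) summed to 21378 to 32578 CPM in WT and 27173 to 30287 CPM in KO libraries. Immune, melanocyte and endothelial markers were low, and fibroblast genes were higher. The 5 tested immune genes summed to 5.63 to 10.4 CPM in WT and 5.99 to 9.19 CPM in KO libraries, the 5 melanocyte genes to 6.33 to 13.4 and 10.3 to 11.7 CPM, and the 5 endothelial genes to 2.57 to 3.53 and 2.72 to 3.56 CPM. The 6 fibroblast genes summed to 116 to 178 CPM in WT and 48.1 to 80.3 CPM in KO libraries, most of it Col1a1 and Col1a2, and their part in the levels of the markers was not tested. Col1a1 stood at 123, 40.4 and 92.9 CPM in WT a to c and at 26.9, 46.2 and 39.3 CPM in KO a to c. Lyz2, Lum, Emcn and Cdh5 did not exceed 3 counts in any library.

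The promoters of Plet1 and Krt79 are shown because these are the markers with the largest fold change between the genotypes. The sequences are the 250 bases before the annotated start in RefSeq (GRCm38.p6), at chr9:50494275-50494524 on the plus strand for Plet1 and at chr15:101940325-101940574 on the minus strand for Krt79, and capitals mark a match to TATAAA.
Plet1: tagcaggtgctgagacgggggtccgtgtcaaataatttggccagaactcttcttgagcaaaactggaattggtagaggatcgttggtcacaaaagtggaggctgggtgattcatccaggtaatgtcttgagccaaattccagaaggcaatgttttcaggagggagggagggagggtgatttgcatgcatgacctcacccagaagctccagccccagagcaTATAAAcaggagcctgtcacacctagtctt
Krt79: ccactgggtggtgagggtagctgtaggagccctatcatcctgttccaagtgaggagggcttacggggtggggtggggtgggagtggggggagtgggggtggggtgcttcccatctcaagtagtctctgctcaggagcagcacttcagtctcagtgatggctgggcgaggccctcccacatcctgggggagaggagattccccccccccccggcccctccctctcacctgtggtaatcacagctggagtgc
Over the window from 250 bases before to 50 bases after the start, on both strands, TATAAA was found in 13.6% of 32851 promoters and AGATAA, a form of the GATA motif, in 11.2%. Plet1 held TATAAA from base −30, the usual place of a TATA box, and no AGATAA. Krt79 held no TATAAA but 1 AGATAA from base 31 after the start, at chr15:101940281-101940302 on the minus strand, shown here with the motif in capitals.
Krt79 match: ctgggaaaAGATAAaaaggtgt
Lrig1 and Lgr6 held neither motif, and their promoters were rich in G and C, at 73% and 67.7% (percentiles 94.3 and 86.8 of all promoters), with 35 and 24 CpG dinucleotides. Plet1, at 52.3% G and C, held 5 CpG, and Krt79, at 62%, held 3. So these 4 promoters fell into a pair with many and a pair with few CpG. The promoter of Gata6 is not described here.

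Of the 5 markers, Plet1 rose in KO cells, and no other marker passed the test. Krt79 and Lrig1 had higher means in KO, Lgr6 and Gata6 lower means, and for each of these 4 the 2 genotypes overlapped. At an adjusted p below 0.05 in edgeR, 1 of 5 markers was called, beside 0.673% of all genes tested (0.461% higher and 0.212% lower in KO). At an unadjusted p below 0.05 it was 3 of 5 (Plet1, Lrig1 and Krt79), beside 11.5% of all genes. DESeq2 called Plet1 alone of the 5, beside 2.52% of all genes, and limma-voom called 0 of 5, beside 0.111% of all genes. In limma-voom 3 of 5 had an unadjusted p below 0.05, beside 11.8% of all genes. The median log2 fold change was 0.38 over the 5 markers and 8.82e-05 over all genes tested.

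**Figure D1:**
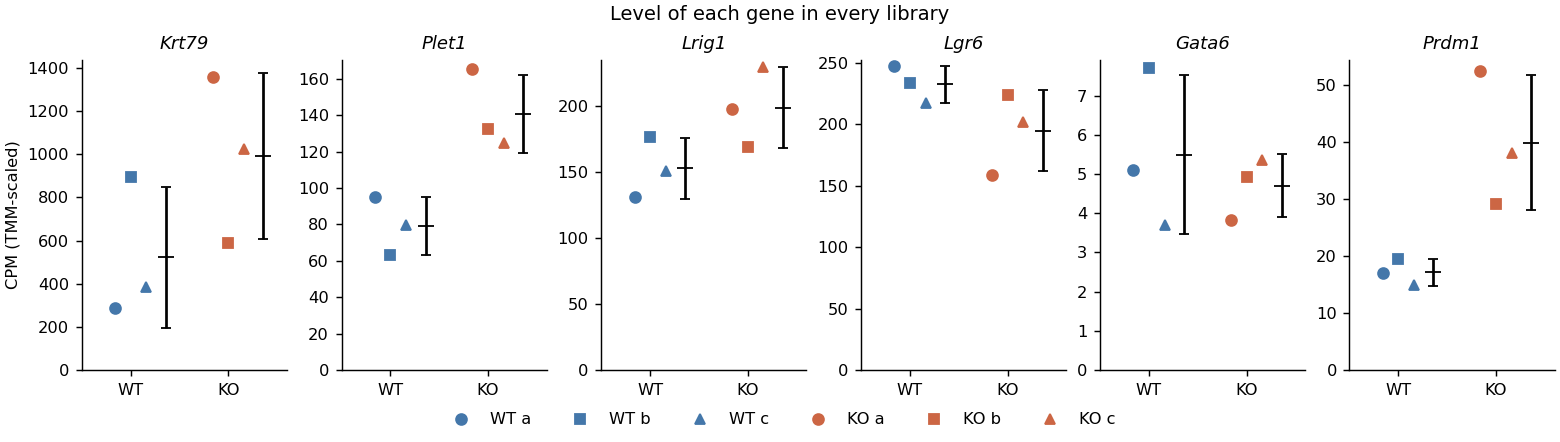
Level of the 5 markers and of Prdm1, another upper follicle gene described further on, in CPM scaled by TMM factors, on axes that start at 0. Each symbol is 1 library (blue WT, orange KO; circle a, square b, triangle c), and the bar beside each group gives the mean ± SD of 3 libraries. The 3 KO libraries lie above the 3 WT libraries for Plet1 and Prdm1, and the groups overlap for the other 4 genes.

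Plet1 (ENSMUSG00000032068, chromosome 9, 50494525 to 50505482, GRCm38) stood at 94.9, 63.2 and 79.5 CPM in WT a to c and at 165, 132 and 125 CPM in KO a to c. Every KO library was above every WT library, a pattern that 8.03% of all genes tested showed (8.23% showed the reverse). The means were 79.2 ± 15.9 CPM in WT and 141 ± 21.5 CPM in KO (each SD, n = 3), a log2 fold change of 0.83 (SE 0.15, the standard error of that estimate) with adjusted p = 0.0325 in the quasi-likelihood test of edgeR, or 1.78-fold with a 95% interval of 1.42 to 2.22. An exact two-sided permutation test gave p = 0.1, the smallest p that 3 libraries against 3 allow. The call was lost in limma-voom (adjusted p = 0.111) and when genes with few counts were left out (adjusted p = 0.131 with filterByExpr), and it was also lost without WT b, WT c, KO a or KO c (adjusted p from edgeR of 0.0523, 0.368, 0.306 and 0.0739). The antisense gene Plet1os, which spans all of Plet1 on the other strand, had 26 to 55 counts per library, against 1379 to 3884 for Plet1. The authors counted reads by strand. Plet1os had a log2 fold change of 0.38 (SE 0.27, adjusted p = 0.648 in edgeR).

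Krt79 (ENSMUSG00000061397, chromosome 15, 101929332 to 101940324) stood at 288, 895 and 385 CPM in WT a to c and at 1359, 590 and 1024 CPM in KO a to c. It was the most variable of the 5 markers. WT b lay above KO b, and the highest library of a genotype exceeded the lowest 3.11-fold in WT and 2.30-fold in KO. The log2 fold change was 0.92 (SE 0.37, adjusted p = 0.355 in edgeR), or 1.90-fold with a 95% interval of 1.08 to 3.33 that is not adjusted for the number of genes tested. The difference did not pass, although its point estimate was larger than that of Plet1. The biological coefficient of variation that edgeR estimated for Krt79 was 35.8%, beside a median of 11.2% for 131 genes within 0.5 log2 CPM of its level, which placed it at percentile 99.2 of them. Here 1 library decided the call. Without WT b the log2 fold change was 1.56 (adjusted p = 0.0467 in edgeR), and without KO a it was 0.63 (adjusted p = 0.799). These fits called 0.579% and 0.0469% of all genes.

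Lrig1 (ENSMUSG00000030029, chromosome 6, 94604529 to 94700158) stood at 131, 177 and 150 CPM in WT a to c and at 197, 169 and 230 CPM in KO a to c. KO a and KO c were above every WT library, whereas KO b lay just below WT b. The log2 fold change was 0.38 (SE 0.13, adjusted p = 0.271 in edgeR), or 1.30-fold with a 95% interval of 1.06 to 1.59. It stayed between 0.26 and 0.50 with each library left out in turn and was called in none of those fits. Of the 7 genes in the list of its family and of the receptors it acts on (Lrig2, Lrig3, Egfr, Erbb2, Erbb3, Erbb4 and Met), edgeR, limma-voom and DESeq2 called 0, with 0 at an unadjusted p below 0.05 in edgeR. Lrig2 had a log2 fold change of −0.17 (SE 0.10) and Lrig3 one of −0.15 (SE 0.10), while Egfr, the best known target of Lrig1, stood at 376 ± 53.5 CPM in WT and 369 ± 28.8 CPM in KO (SD, n = 3).

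Lgr6 (ENSMUSG00000042793, chromosome 1, 134983301 to 135105276) varied least among the WT libraries of the 5 markers. It stood at 247, 233 and 217 CPM in WT a to c and at 159, 224 and 202 CPM in KO a to c, so that KO a and KO c lay below every WT library and KO b above WT c. The log2 fold change was −0.26 (SE 0.12, adjusted p = 0.456 in edgeR), and the 95% interval ran from 0.696 to 1.01 of the WT level. Its relatives differed in direction. Lgr5, the receptor of bulge and hair germ stem cells, had a log2 fold change of −0.47 (SE 0.17, adjusted p = 0.283), and Lgr4 one of 0.22 (SE 0.09, adjusted p = 0.393). Of the 8 tested genes of the LGR and R-spondin list, edgeR and limma-voom called 0, with 3 at an unadjusted p below 0.05 in edgeR (11.5% of all genes). DESeq2 called 1, beside 2.52% of all genes. This was the Wnt target Axin2, which stood at 43.4 ± 6.54 CPM in WT and 27.3 ± 6.36 CPM in KO (SD, n = 3). In edgeR Axin2 was also lower in KO but was not called (log2 fold change −0.67, SE 0.16, adjusted p = 0.100). Rspo3 and Rspo4 did not exceed 3 counts in any library.

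Gata6 (ENSMUSG00000005836, chromosome 18, 11052510 to 11085635) was the least abundant marker, at percentile 50.3 of tested genes, with 84 to 168 counts per library. It stood at 5.09, 7.70 and 3.70 CPM in WT a to c and at 3.83, 4.92 and 5.37 CPM in KO a to c. All 3 KO libraries lay within the range of the WT libraries, and WT b was the highest of the 6. The log2 fold change was −0.22 (SE 0.26, adjusted p = 0.735 in edgeR), with a 95% interval of 0.575 to 1.27 of the WT level, so neither a decrease of this size nor a small increase could be told from no change in these libraries. Without WT b it was 0.10. Of the other GATA factors, Gata3, which acts in epidermal and inner root sheath differentiation, was much the most abundant, at 79.5 ± 5.22 CPM in WT and 77.6 ± 3.68 CPM in KO (SD, n = 3), and Gata1 and Gata2 were at or below 0.328 CPM in every library. edgeR, limma-voom and DESeq2 called 0 of the 5 tested GATA and FOG genes, with 0 at an unadjusted p below 0.05 in edgeR.

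**Figure D2:**
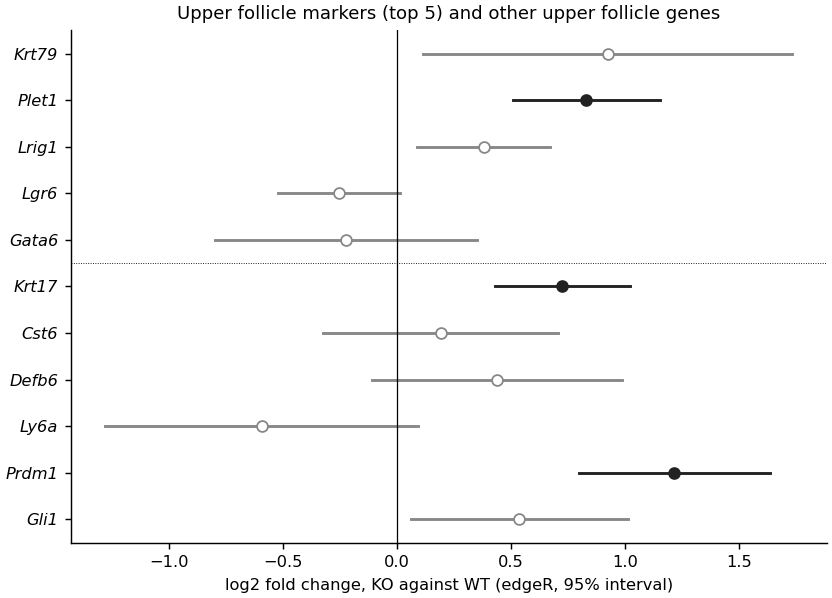
Log2 fold change of KO against WT from edgeR (points) with its unadjusted 95% interval (lines) for the 5 markers, above the dotted line, and for 6 other upper follicle genes, below it. Filled points have an adjusted p below 0.05 and are Plet1, Krt17 and Prdm1, all to the right of 0.

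On a scale that allows genes to be compared, CPM per kilobase of exon, Krt79 came first in both genotypes, at 110 ± 68.6 in WT and 208 ± 81.1 in KO (SD, n = 3). Plet1 followed, at 40.7 ± 8.15 and 72.3 ± 11.0. In WT the order went on with Lgr6 (33.9 ± 2.22), Lrig1 (27.3 ± 4.13) and Gata6 (0.845 ± 0.311). In KO Lrig1 (35.5 ± 5.46) stood before Lgr6 (28.4 ± 4.83), and Gata6 was last at 0.723 ± 0.122. Neighbours whose ranges over 3 libraries overlapped were Plet1 and Lgr6 in WT and Lrig1 and Lgr6 in KO, and these pairs cannot be ranked beyond their spread. Exon lengths cover all transcripts in GENCODE M21. With the longest coding transcript in their place the level of Krt79 was 249 in WT and 473 in KO, and the order of the 5 stayed as it was. Per kilobase of exon, Gata6 lay below Gata3 (20.0 ± 1.31 in WT and 19.5 ± 0.924 in KO), Lgr6 below Lgr4 (46.8 ± 3.11 and 54.5 ± 3.06) and Lgr5 (57.1 ± 11.3 and 41.4 ± 8.98), and Lrig1 above Lrig3 (16.4 ± 0.796 and 14.8 ± 1.46) and Lrig2 (3.11 ± 0.102 and 2.76 ± 0.0398). The ranges of each of these pairs stayed apart in both genotypes, but per kilobase of the longest coding transcript Lrig3 had the higher mean in WT (34.2 ± 1.66 against 30.8 ± 4.66 for Lrig1). Krt79 was far above Krt78 and Krt4, which lie on either side of it in the type II keratin cluster, with Krt78 at 1.71 ± 0.615 in WT and 0.983 ± 0.193 in KO and Krt4 at 0.178 ± 0.0476 and 0.213 ± 0.0409. Krt77, at 41.4 ± 38.3 in WT and 21.8 ± 12.2 in KO, overlapped with Krt79 in WT, and Krt6a (635 ± 124 and 952 ± 138) and the basal keratin Krt5 (8984 ± 2262 and 8822 ± 729) were far more abundant than Krt79. Of the 7 tested genes of the list of other type II keratins, which leaves out Krt1, Krt5, Krt6a and Krt75 since other lists hold them, edgeR, limma-voom and DESeq2 called 0. At an unadjusted p below 0.05 in edgeR it was 1 of 7, beside 11.5% of all genes. That gene, Krt78, had a log2 fold change of −0.80 (SE 0.28, adjusted p = 0.268), opposite in sign to Krt79.

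**Figure D3:**
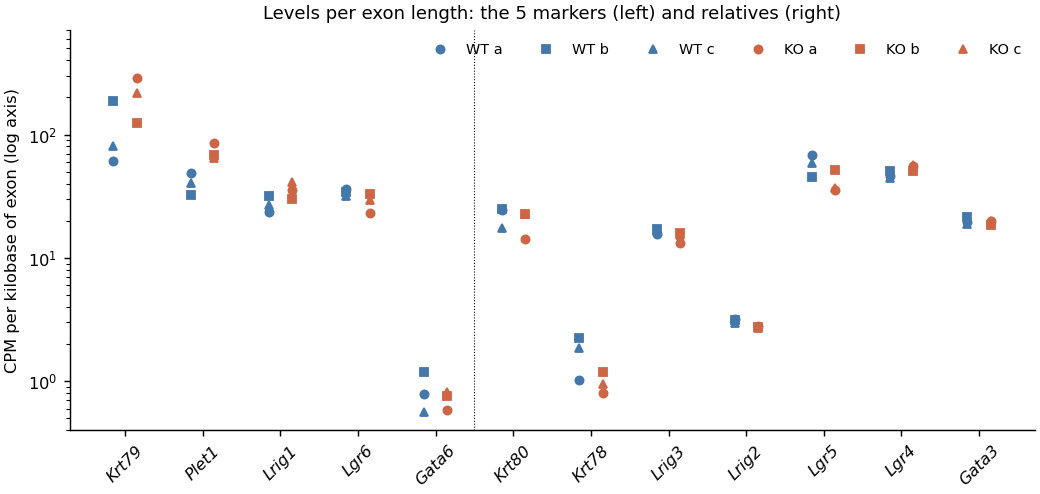
CPM per kilobase of exon on a log axis for the 5 markers (left of the dotted line) and for relatives of Krt79, Lrig1, Lgr6 and Gata6 (right of it), with 1 symbol per library (blue WT, orange KO; circle a, square b, triangle c). Krt79 has the highest mean of the genes drawn in each genotype, although Lgr5 (67.7) lies above it (60.5) in WT a. Gata6 lies lowest of the 5, near 1.

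Other genes of the upper follicle were taken as a list of 6. Of these, 2 rose in KO and none fell at an adjusted p below 0.05 in edgeR, beside 0.673% of all genes called. DESeq2 also called 2 (2.52% of all genes), limma-voom called 0 (0.111%), and 3 had an unadjusted p below 0.05 in edgeR (11.5%). The median log2 fold change of the list was 0.49, with 5 genes higher and 1 lower. Prdm1 (Blimp1), a transcriptional repressor found in sebaceous gland progenitors and in differentiating keratinocytes, stood at 17.0, 19.6 and 14.9 CPM in WT a to c and at 52.5, 29.0 and 38.0 CPM in KO a to c. Every KO library was above every WT library, a pattern that 8.03% of all genes tested showed. The log2 fold change was 1.22 (SE 0.19, adjusted p = 0.0213 in edgeR), or 2.32-fold with a 95% interval of 1.74 to 3.11. Krt17, a keratin of the outer root sheath and infundibulum that also responds to stress, stood at 2090, 2069 and 2076 CPM in WT and at 3874, 2710 and 3725 CPM in KO libraries. Its WT libraries were almost alike and each KO library lay above them (log2 fold change 0.73, SE 0.13, adjusted p = 0.0409 in edgeR). Both calls were lost in limma-voom (adjusted p = 0.109 for Prdm1 and 0.105 for Krt17), with filterByExpr (0.118 and 0.131) and without WT c (0.368 for both), KO a (0.174 and 0.306) or KO c (0.0735 and 0.182), and that of Krt17 also without WT b (0.0828). The other 4 genes did not pass. Gli1, a Hedgehog target of the upper bulge and isthmus, had a log2 fold change of 0.54 (SE 0.22, adjusted p = 0.367), the defensin gene Defb6 one of 0.44 (SE 0.25, adjusted p = 0.568) and the cystatin gene Cst6 one of 0.19 (SE 0.24, adjusted p = 0.753). Ly6a (Sca-1), a surface protein of the infundibulum and interfollicular epidermis, had one of −0.60 (SE 0.31, adjusted p = 0.522). For Ly6a the outlying library was WT a, at 6.29 CPM against 18.6 CPM in both WT b and WT c. Without WT a the log2 fold change was −0.95 (adjusted p = 0.00705 in edgeR), in a fit that called 2.44% of all genes, against 0.673% with all 6 libraries.

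The libraries were not alike in the RNA levels of genes of neighbouring compartments. The 11 sebaceous gland genes summed to 232, 531 and 309 CPM in WT a to c and to 436, 312 and 299 CPM in KO a to c. WT b was the highest WT library for 8 of these 11 genes, for 5 of the 6 other upper follicle genes and for 3 of the 5 markers (Krt79, Lrig1 and Gata6), but for 1 of 8 bulge genes. Among KO libraries KO a was highest for 8 of the 11 sebaceous genes, for 4 of the 6 other upper follicle genes and for 2 of the 5 markers (Krt79 and Plet1), and for 0 of 8 bulge genes. WT b was also the highest WT library for 5 of 7 genes of the suprabasal interfollicular epidermis, and KO a the highest KO library for 1 of them. The share of all genes for which WT b or KO a was highest was not computed. Within each genotype the library with the highest sebaceous sum had the highest Krt79, at 895 CPM in WT b and 1359 CPM in KO a. Across all 6 the orders differed, since KO c, with the second highest Krt79 (1024 CPM), had the second lowest sebaceous sum. Plet1 went against the sebaceous sums in WT, where WT b, with the highest sebaceous sum of the 6 libraries, had the lowest Plet1. Between the genotypes, edgeR, limma-voom and DESeq2 called 0 of the 11 sebaceous genes. At an unadjusted p below 0.05 in edgeR it was 3 of 11, beside 11.5% of all genes, and the median log2 fold change of the 11 was 0.04. Scd1, a desaturase of lipid synthesis, had one of 0.03 (SE 0.32), Mgst1, a glutathione transferase, one of −0.35 (SE 0.10), and Dgat2, an enzyme of triglyceride synthesis, one of 0.15 (SE 0.13). The part of sebaceous and suprabasal cells in the levels of the markers was not tested.

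**Figure D4:**
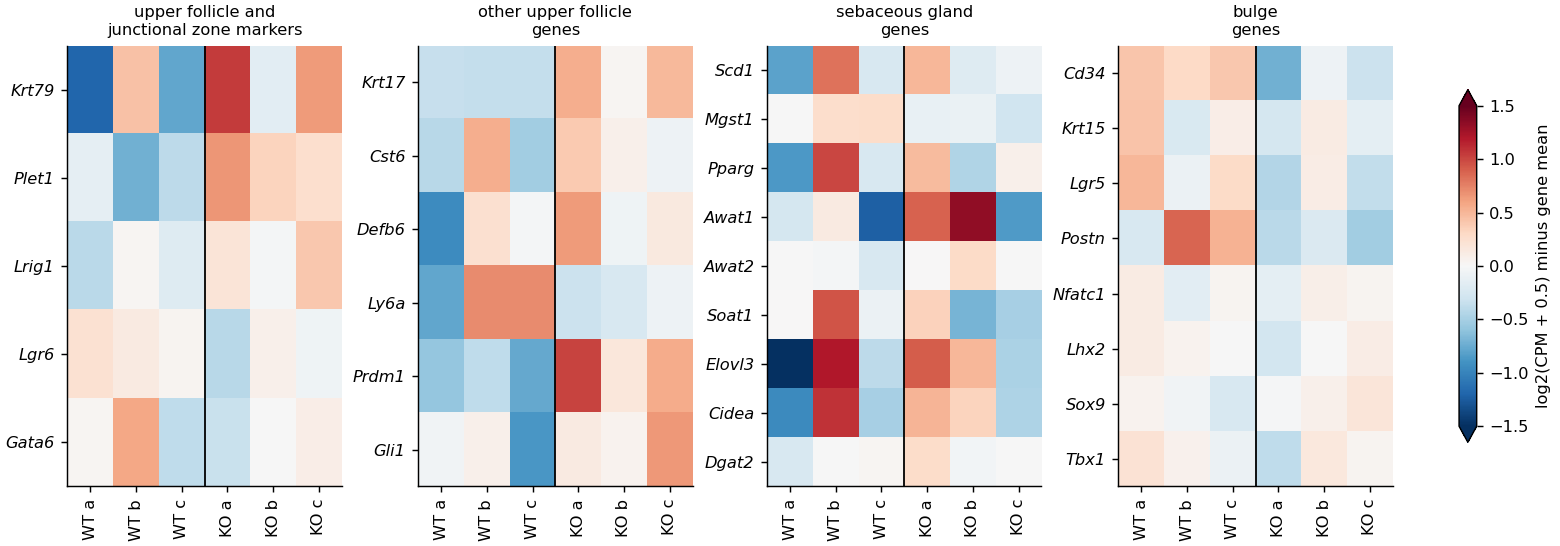
Log2(CPM + 0.5) of each gene minus its mean over the 6 libraries (red higher, blue lower, colours saturate at ±1.5) for the 5 markers, the 6 other upper follicle genes, the sebaceous gland genes with a mean above 1 CPM and 8 bulge genes, with WT left and KO right of the black line. WT b and KO a are red for most sebaceous genes and for Krt79, while Plet1 is red in the 3 KO libraries and bluest in WT b.

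Of 8 bulge genes, Cd34 fell in KO at an adjusted p below 0.05 in edgeR and none rose, beside 0.673% of all genes called. In the list 7 had lower and 1 had higher means in KO, with a median log2 fold change of −0.16. At an unadjusted p below 0.05 in edgeR it was 3 of 8, beside 11.5% of all genes. limma-voom called 0 (0.111% of all genes), and DESeq2 called Cd34 and Postn (2.52% of all genes). Postn, a matricellular protein gene, had a log2 fold change of −0.83 (SE 0.22, adjusted p = 0.124) in edgeR. Cd34, the surface marker by which bulge cells are commonly sorted, stood at 881, 806 and 872 CPM in WT and at 399, 625 and 526 CPM in KO libraries (log2 fold change −0.72, SE 0.14, adjusted p = 0.0462 in edgeR). This call was lost in limma-voom (adjusted p = 0.119), with filterByExpr (0.131), with at least 10 counts in each library (0.133) and without WT b (0.0685), WT c (0.379), KO a (0.250) or KO c (0.184). KO a, which had the highest Plet1, Krt79 and Prdm1, had the lowest Cd34. KO b had the highest Cd34 of the KO libraries and the lowest Krt79, Lrig1 and Prdm1 of them. The summed level of the 8 genes was 20131 to 22215 CPM in WT and 14854 to 18829 CPM in KO libraries. Most of this sum came from Krt15 and Postn, and Krt15 overlapped between the genotypes (log2 fold change −0.21, SE 0.17, adjusted p = 0.681 in edgeR). The log2 fold changes were −0.47 for Lgr5, −0.01 for Nfatc1, −0.11 for Lhx2, −0.11 for Tbx1 and 0.16 for Sox9, and none of these genes was called. Among genes of the suprabasal interfollicular epidermis, such as Krt1 and Krt10, edgeR, limma-voom and DESeq2 called 0 of 7, with 0 at an unadjusted p below 0.05 in edgeR, and the median log2 fold change was −0.26.

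**Figure D5:**
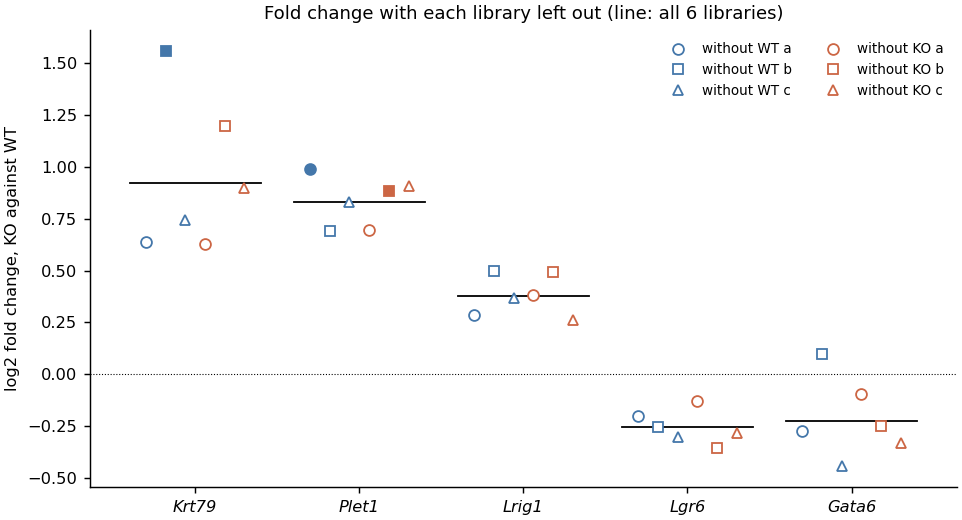
Log2 fold change of KO against WT from edgeR for the 5 markers with all 6 libraries (line) and with each library left out in turn (symbols, blue for a WT and orange for a KO library left out). Filled symbols have an adjusted p below 0.05. Plet1 stays between 0.69 and 0.99, Krt79 runs from 0.63 to 1.56, and Gata6 crosses 0 without WT b.

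The genes whose profile over the 6 libraries came closest to each marker were found by the root mean square difference of log2 CPM, each gene centred on its own mean, among 8574 genes with a mean log2 CPM above 4 (8575 for Gata6). For Plet1 these were Slc30a1, a zinc exporter, at 0.0873, Tiparp at 0.0874 and Mvd, an enzyme of the mevalonate pathway, at 0.0990, where the root mean square of the centred values of Plet1 itself was 0.468. Slc30a1 rose in KO as well (log2 fold change 0.74, SE 0.13, adjusted p = 0.0256 in edgeR). The profile of Krt79 was shared less closely, by Cntfr at 0.235, Smox at 0.268 and 1810011O10Rik at 0.345, against its own 0.790. For Lrig1 they included Farp1 at 0.0640 and Smad3 at 0.0765 (against 0.261), and for Lgr6 Crim1 at 0.0247 and Klhl17 at 0.0401 (against 0.206). For Gata6 they were Dixdc1, Aebp1 and Gabbr1 (0.0810 to 0.122, against 0.344). No marker was among the 3 closest genes of another. With only 3 of 8574 candidates kept for each marker, this cannot tell whether the markers vary together. The absence of Gata6 was also fixed beforehand, since its mean log2 CPM of 2.37 kept it out of the candidates. The likeness takes in the difference between genotypes, and all genes share the same 6 libraries.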

How the data were processed

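RNA was measured in FACS-sorted GFP-positive keratinocytes from 3 mice each of the K19 Itga3 KO and WT genotypes. The authors made strand-specific libraries of polyadenylated RNA, aligned single reads of 65 bases to GRCm38 with TopHat 2.1.0 and Bowtie 1.1, and counted uniquely mapped reads per gene by strand. The deposited values are these raw counts, with no normalization or pooling. Dropping reads with several matches lowers the counts of genes with close copies, keratins among them.

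Each column was assigned to its genotype by its name. Genes with any count above 0 were tested in R 4.3.3 with edgeR 4.0.16 (TMM factors, glmQLFit, glmQLFTest, Benjamini-Hochberg over 21681 genes), and each adjusted p is from this fit unless another tool is named. Standard errors and 95% intervals come from the quasi-likelihood F statistic and are not adjusted. The p-values set the difference between the genotypes against the spread between these libraries, 3 per genotype. Single genes were also tested by exact permutation. Alternatives were limma-voom (limma 3.58.1), DESeq2 1.42.0, library size only, upper-quartile factors, filterByExpr, at least 10 counts in every library, and each library left out. Depth was 20578309 to 23670507 counts per library. At this depth 3 counts, the floor, equal 0.128 to 0.145 CPM, covering counting error only. The code was tested on simulated data. Exon lengths are from GENCODE M21 (GRCm38, where 4 of the 5 markers have the coordinates of the table) and promoters from RefSeq.

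The markers and lists were chosen with earlier results of these data known. The genes named were the 5 markers, the 6 other upper follicle genes, relatives of the markers, abundant or called genes of the other lists and the 3 genes closest to each marker. Any other gene, Plet1os among them, was named after its values were seen. Results for 2 genes that this rule covers are not reported here.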

Additional observations from a re-analysis of the deposited data

How the results depend on the processing

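No paired analysis was possible because the columns of the table carry no replicate number. The WT and KO libraries also came from separate mice, and the labels do not state that equal sample numbers mark pairs. Library size only and upper-quartile factors kept the direction and the call of each of the 5 markers. With library size only the levels of the markers moved by less than 1 SD. The levels were also recomputed with single libraries left out, but dropping 1 of 3 libraries cannot move their mean by 1 SD, so this could not decide the question. The call of Plet1 was lost in limma-voom (log2 fold change 0.84), with filterByExpr (0.83) and with a minimum of 10 counts per library (0.82), so 0 of 5 markers were called there, with 3, 2 and 2 at an unadjusted p below 0.05. Over all genes these fits called 24 of 21681, 15 of 13811 and 12 of 13054 genes, with 11.8%, 15.3% and 15.4% at an unadjusted p below 0.05. With DESeq2 the adjusted p of Plet1 was 0.00021. When single libraries were left out, log2 fold changes ran from 0.69 to 0.99 for Plet1, which was called without WT a or KO b, from 0.63 to 1.56 for Krt79, from 0.26 to 0.50 for Lrig1, from −0.36 to −0.13 for Lgr6 and from −0.44 to 0.10 for Gata6, and 0 to 1 markers were called. Without WT c, KO a and KO c edgeR called 0 markers, with 1, 2 and 1 at an unadjusted p below 0.05. Over all genes 5, 10 and 30 were called in these fits, against 146 with all 6 libraries. The fits without WT a, WT b and KO b, which each called 1 marker, called 521, 123 and 201 of all genes. Gata6 reversed without WT b alone (0.10), and the cause was not tested. Without division by length, 2 of 5 markers kept their rank in WT and 2 in KO. With the length of the longest coding transcript, an alternative chosen after seeing the data like those for the other upper follicle genes, all 5 did. The 84 to 168 counts of Gata6 are the fewest of the markers, and the others had at least 1379 in every library.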

Other observations

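Genes of the inner bulge and companion layer were not among the markers. Krt6a, a keratin of the inner bulge that also rises with stress and hyperproliferation, stood at 1534 ± 301 CPM in WT and 2301 ± 335 CPM in KO libraries (SD, n = 3), a log2 fold change of 0.58 (SE 0.15, adjusted p = 0.122 in edgeR), and DESeq2 called it. Krt75 and Fgf18 had log2 fold changes of 0.03 (SE 0.20) and −0.10 (SE 0.14). limma-voom and edgeR called 0 of the 3, with 1 at an unadjusted p below 0.05 in edgeR. Over all genes DESeq2 called 2.52%, and 11.5% had an unadjusted p below 0.05 in edgeR.

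Among the fibroblast genes, Col1a2 stood at 61.9 ± 10.1 CPM in WT and 27.3 ± 10.6 CPM in KO libraries (log2 fold change −1.18, SE 0.24, adjusted p = 0.0555 in edgeR), while Dcn, a proteoglycan of dermal fibroblasts, had a log2 fold change of 1.84 (SE 0.47, adjusted p = 0.113) on 0.573 to 5.44 CPM. DESeq2 called both, beside 2.52% of all genes. edgeR and limma-voom called 0 of the 6 genes, with 5 at an unadjusted p below 0.05 in edgeR, beside 11.5% of all genes.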
